A study of Mus musculus with 2 samples.

Results

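The activin, inhibin and Smad genes are a set of 10 named genes, namely Inha, Inhba, Inhbb, Fst, Acvr1b, Acvr2a, Acvr2b, Smad2, Smad3 and Smad4, of the 21911 protein-coding genes of GENCODE vM21 (GRCm38). Their accessible regions were taken as all ATAC-seq peaks whose summit lay in the gene body or within 50 kb of either end. This gave 32 of the 58519 peaks of replicate 1 and 57 of the 64984 peaks of replicate 2. The rule that finds these peaks uses gene names and positions only, and the genes were named with earlier results of these data known.

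Both samples were LβT2 cells, an immortalized gonadotrope line derived from a mouse pituitary tumour that was driven by a viral oncogene under a luteinizing hormone β regulatory region. The cells, at passage 21, were given 4 pulses of 2 nM GnRH at intervals of 2 h over 6 h 45 min and were harvested 45 min after the last pulse. The 2 replicates share this 1 condition and come from 1 cell line, and unstimulated cells were not analysed here, so nothing below is a response to GnRH. ATAC-seq marks open chromatin, where a transposase can reach the DNA, and a peak gives accessibility and not transcription.

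Activins are dimers of inhibin β subunits and act in the pituitary on follicle-stimulating hormone synthesis, whereas inhibins pair a β subunit with the α subunit and oppose them. Activin binds a type II receptor, which recruits and phosphorylates a type I receptor, and the type I receptor phosphorylates Smad2 and Smad3. These join Smad4 and enter the nucleus, and follistatin blocks the pathway by binding activin outside the cell. In gonadotropes this pathway is known for driving the Fshb gene together with forkhead factors.

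The sequences below carry the main contrasts among the loci, with coordinates on GRCm38 and each sequence written 5′ to 3′ along its gene. These first 4 are promoter peaks at Inha, Acvr2a, Acvr2b and Smad3, all listed in replicate 2 without an overlapping peak in replicate 1. They show that the letters of the GC-rich Smad element were present at Acvr2a and not in the other 3. Capitals mark GGGCGG (the SP1 box) or GGCGCC (a GC-rich element that Smad proteins can bind) on either strand.
Inha, summit at −0.332 kb, chr1:75506670-75506820, plus strand: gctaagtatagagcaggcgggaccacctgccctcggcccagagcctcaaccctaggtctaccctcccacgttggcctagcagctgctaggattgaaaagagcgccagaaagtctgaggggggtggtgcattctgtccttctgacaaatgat
Acvr2a, summit at −0.343 kb, chr2:48813691-48813841, plus strand: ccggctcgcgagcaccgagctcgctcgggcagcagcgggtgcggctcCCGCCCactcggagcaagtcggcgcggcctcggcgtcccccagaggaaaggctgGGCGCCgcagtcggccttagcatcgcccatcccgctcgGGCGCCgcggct
Acvr2b, summit at −0.225 kb, chr9:119401818-119401968, plus strand: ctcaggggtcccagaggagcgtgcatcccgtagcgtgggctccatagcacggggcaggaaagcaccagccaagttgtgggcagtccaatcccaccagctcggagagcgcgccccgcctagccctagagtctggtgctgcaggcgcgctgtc
Smad3, summit at −0.213 kb, chr9:63758132-63758282, minus strand: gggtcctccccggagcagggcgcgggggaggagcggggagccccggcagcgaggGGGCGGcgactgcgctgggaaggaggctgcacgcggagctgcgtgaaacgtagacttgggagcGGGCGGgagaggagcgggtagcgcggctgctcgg

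Next are 3 distant summits of replicate 1 that had a partner in replicate 2, at Inhbb, Acvr1b and Inha. Positions are in kb from the 5′-most start along the gene, negative upstream. Capitals mark TGACTCA (AP1), TGTTTAC (forkhead), GGGCGG or GGCGCC on either strand, the last pair overlapping in the Acvr1b sequence. None of the searched motifs that are capitalised here occurs in the Inha sequence, which is a tandem repeat: the unit TGTGC occurs 25 times in its 151 bases.
Inhbb, summit at 31.4 kb, chr1:119390809-119390959, minus strand: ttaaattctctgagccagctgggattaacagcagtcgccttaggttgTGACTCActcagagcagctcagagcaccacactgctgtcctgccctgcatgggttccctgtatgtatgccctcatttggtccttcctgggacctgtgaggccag
Acvr1b, summit at 72.4 kb, chr15:101246343-101246493, plus strand: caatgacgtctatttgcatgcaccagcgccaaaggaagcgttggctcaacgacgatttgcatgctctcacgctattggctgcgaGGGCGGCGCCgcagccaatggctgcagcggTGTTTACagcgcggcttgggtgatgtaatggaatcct
Inha, summit at −45.1 kb, chr1:75461861-75462011, plus strand: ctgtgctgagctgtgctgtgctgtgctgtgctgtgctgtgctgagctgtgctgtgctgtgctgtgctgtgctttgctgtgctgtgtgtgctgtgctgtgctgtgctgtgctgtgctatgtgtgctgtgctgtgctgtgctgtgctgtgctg

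The last pair of sequences comes from promoters without a peak in either replicate, the AT-richer one of Inhba and the CpG-rich one of Acvr1b. They are the RefSeq promoter bases up to the GENCODE start (250 bases at Inhba and 245 at Acvr1b). Capitals mark GGGCGG or CACGTG (the E-box) on either strand.
Inhba, chr13:16011601-16011850, plus strand: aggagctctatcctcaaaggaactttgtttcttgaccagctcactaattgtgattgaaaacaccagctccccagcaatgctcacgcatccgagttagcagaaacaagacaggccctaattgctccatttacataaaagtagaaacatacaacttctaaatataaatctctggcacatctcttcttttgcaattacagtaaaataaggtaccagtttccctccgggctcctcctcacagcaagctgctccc
Acvr1b, chr15:101173822-101174066, plus strand: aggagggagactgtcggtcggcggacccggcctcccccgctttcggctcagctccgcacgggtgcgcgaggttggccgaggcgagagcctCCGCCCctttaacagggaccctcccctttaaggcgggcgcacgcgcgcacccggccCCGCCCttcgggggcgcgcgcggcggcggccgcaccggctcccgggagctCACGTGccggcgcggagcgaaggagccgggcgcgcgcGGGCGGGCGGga

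Depth and the other facts of the whole lists were as follows. The lists give no read totals, so the number of extended tags at each summit and the expected background were recovered from the fold and p of each peak. The background was 3.05 tags in replicate 1 and 3.54 in replicate 2, and the lowest listed peak held 10 and 11 tags. Where no peak is listed, none was detectable at that threshold. The gonadotrope label was set beside promoter peaks of 6 genes chosen for it, of which Egr1 is an early gene that GnRH induces. Lhb (49 and 70 tags), Cga (25 and 50), Gnrhr (22 and 33) and Egr1 (22 and 30) had one in both replicates, Nr5a1 in replicate 2 only and Pitx1 in neither, and 0 of 6 markers of other pituitary lineages had one in either. Of all protein-coding genes 30.8% had one in both, and 11854 of 21911 had one in neither. The paper had already shown Lhb, Cga, Gnrhr and Egr1 open and Tshb closed in these data, so for these genes the outcome was known beforehand.

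At promoters, defined as 1 kb to either side of any annotated start, 4 of the 10 genes had a peak in replicate 1 (Inha, Acvr2a, Smad2 and Smad4) and 7 in replicate 2, where Inhbb, Acvr2b and Smad3 were added. In the same lists 32.3% and 44.4% of all protein-coding genes had a promoter peak. The 4 genes of replicate 1 had one in both replicates, beside 30.8% of all protein-coding genes. With a promoter width of 500 bp Inha was lost in replicate 1, and with a −log10 q of at least 10 the counts fell to 1 gene (Smad4) and 2 genes (Smad2 and Smad4). Inhba, Fst and Acvr1b had none in either replicate. The counts of 4, 7 and 4 of 10 genes thus stood above or near these background shares, and 10 genes are too few to place the share closely. The plot of promoter tags by gene shows the values and their intervals.

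**Figure D1:**
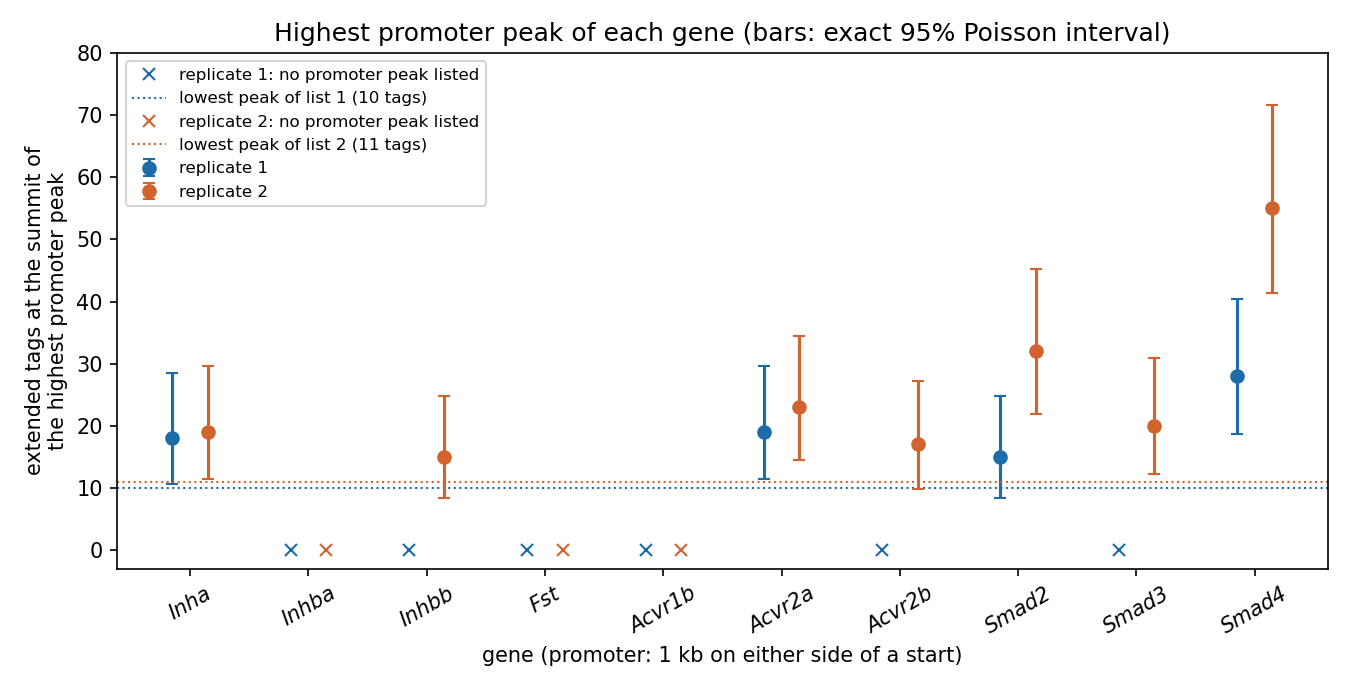
Tags at the highest promoter summit (y axis, number of extended tags) for each of the 10 genes (x axis), with replicate 1 in blue and replicate 2 in orange; bars are exact 95% Poisson intervals, which cover counting error only, crosses stand for no listed peak, and dotted lines mark the lowest peak of each list. Smad4 was highest in both replicates (28 and 55 tags), and Inhba, Fst and Acvr1b had no promoter peak.

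Inha encodes the α subunit that makes an inhibin of a β subunit. Its promoter peak held 18 tags in replicate 1 (exact 95% Poisson interval 10.7 to 28.4; fold enrichment 4.69, −log10 q 6.22) and 19 tags in replicate 2 (11.4 to 29.7; 4.41 and 6.21). The mean −log10 q was 6.21 ± 0.0073 (SD, n = 2), the closest agreement of the 4 genes with a peak in both lists. The positions did not match, however. The summit lay at −900 bp in replicate 1 (peak at chr1:75506079-75506427) and at −332 bp in replicate 2 (chr1:75506602-75506843), and these peaks do not overlap. The peak of replicate 1 instead overlaps the end of a peak of replicate 2 with 28 tags and its summit at −1391 bp, which has its own partner in replicate 1 with 14 tags at −1387 bp.

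Obsl1, which encodes a cytoskeletal linker protein, starts on the other strand just upstream. Its protein-coding starts there lie 716 bp and 1436 bp upstream of the Inha start, and a further start, of a transcript that is not protein-coding, lies 625 bp upstream. The summit at −900 bp lay 0.184 kb from an Obsl1 start, and those at −332, −1387 and −1391 bp lay −0.293, −0.049 and −0.045 kb from one, so all were nearer to an annotated Obsl1 start than to Inha. With protein-coding starts alone, the summit at −332 bp was nearer to Inha. Whether these peaks belong to Inha or to Obsl1 cannot be told apart by position. RefSeq lists a further Inha start 532 bp downstream, and these 4 summits upstream of Inha were all farther from it than from the shared start.

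The whole Inha window, the peaks just described included, was the richest of the 10, with 7 peaks in replicate 1 and 13 in replicate 2, and 0 of them in the gene body. Of these, 4 and 7 lay in promoters of other genes. The shared promoter of Chpf and Tmem198 (−log10 q 23.9 and 33.8) and that of Stk11ip (11.1 and 12.5) held a peak in both replicates. An Obsl1 promoter at −19.4 and −19.2 kb did so too (9.36 and 31.5). The annotated Obsl1 starts there are of transcripts that are not protein-coding. The pair at −1387 and −1391 bp, near the protein-coding Obsl1 start 1436 bp upstream, had a −log10 q of 3.49 and 13.4. A peak in an exon of Slc4a3, which encodes an anion exchanger, held 23 tags in replicate 1 and 49 in replicate 2. A peak seen in replicate 2 alone at 10.0 kb, past the 3′ end of Inha, held 20 tags and the letters TGTTTAC (forkhead) and TCAAGGTCA (SF1) near its summit.

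The highest peak in any of the 10 windows lay at −45.1 kb, in an intron of Asic4. It held 79 tags in replicate 1 and 75 in replicate 2 (−log10 q 77.3 and 67.1), and its summits were 9 bp apart. It was 2027 and 2036 bp wide and stood at percentile 99.7 and 99.3 of the lists. The 50 bp at its summit occur at 1 place of the genome, but 100% of the bases within 100 bp of the summit are repeat-masked in the reference, and its sequence is the TGTGC repeat printed above. It was 1 of only 3 of the 29 overlapping pairs with more tags in replicate 1. How reads placed in the repeat affect it was not tested.

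Inhba, which encodes the βA subunit, had no promoter or gene-body peak in either replicate. Its window held 2 peaks in replicate 1, of 17 tags each at −48.6 and −43.4 kb, and 1 peak of 14 tags in replicate 2 at −43.0 kb. All of them lay in an intron of B230303A05Rik and were repeat-masked, and the 50 bp at the summits occur at 9485, 188 and 199 places of the genome. By the 50 bp measure no single-copy peak was found within 50 kb of Inhba, and with 200 bp the sequence at −48.6 and −43.0 kb was single-copy.

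Inhbb encodes the βB subunit, and its pattern differed from that of Inhba. A promoter peak was listed in replicate 2 only, at 484 bp with 15 tags (8.40 to 24.7; −log10 q 3.57), which is low in that list's promoters (percentile 10.3). Replicate 2 also had an exon peak of 14 tags and an upstream peak of 26 tags at −2.44 kb (−log10 q 11.7) without a partner in replicate 1. Past the 3′ end, both replicates showed a group of intergenic peaks between 28.9 and 35.8 kb from the start. Replicate 1 had 5 peaks there and replicate 2 had 4, and all overlapped a peak of the other replicate, one broad peak of replicate 2 spanning 2 of replicate 1.

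Within this Inhbb group, the peak near 28.9 kb held 23 tags in replicate 1 and 28 in replicate 2, with a mean −log10 q of 11.8 ± 2.27 (SD, n = 2). The peak at 31.4 kb held 19 and 29 tags, and the one at 32.2 kb held 20 and 34. The outermost, at 35.6 and 35.8 kb, held 12 and 15. All of these summits were single-copy, with 0% to 19.9% masked bases, and the nearest annotated start to each was that of Inhbb itself. The AP1 letters TGACTCA printed above lie within 100 bp of the 31.4 kb summit in both replicates, and neither they nor their other strand, TGAGTCA, were found at another peak of the 10 windows. Within 50 bp of a summit, AP1 letters were in 1 window of replicate 1 and 0 of replicate 2. AP1 letters occurred in 2.09% and 2.28% of the summit windows of the whole lists.

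Fst encodes follistatin. Its window held 0 peaks in either replicate, which made it 1 of 10 genes without any, and 7.48% of all protein-coding genes had no peak within 50 kb in either replicate. The nearest summit was 58.4 kb from the gene body in replicate 1 (11 tags) and 64.5 kb in replicate 2 (16 tags).

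**Figure D2:**
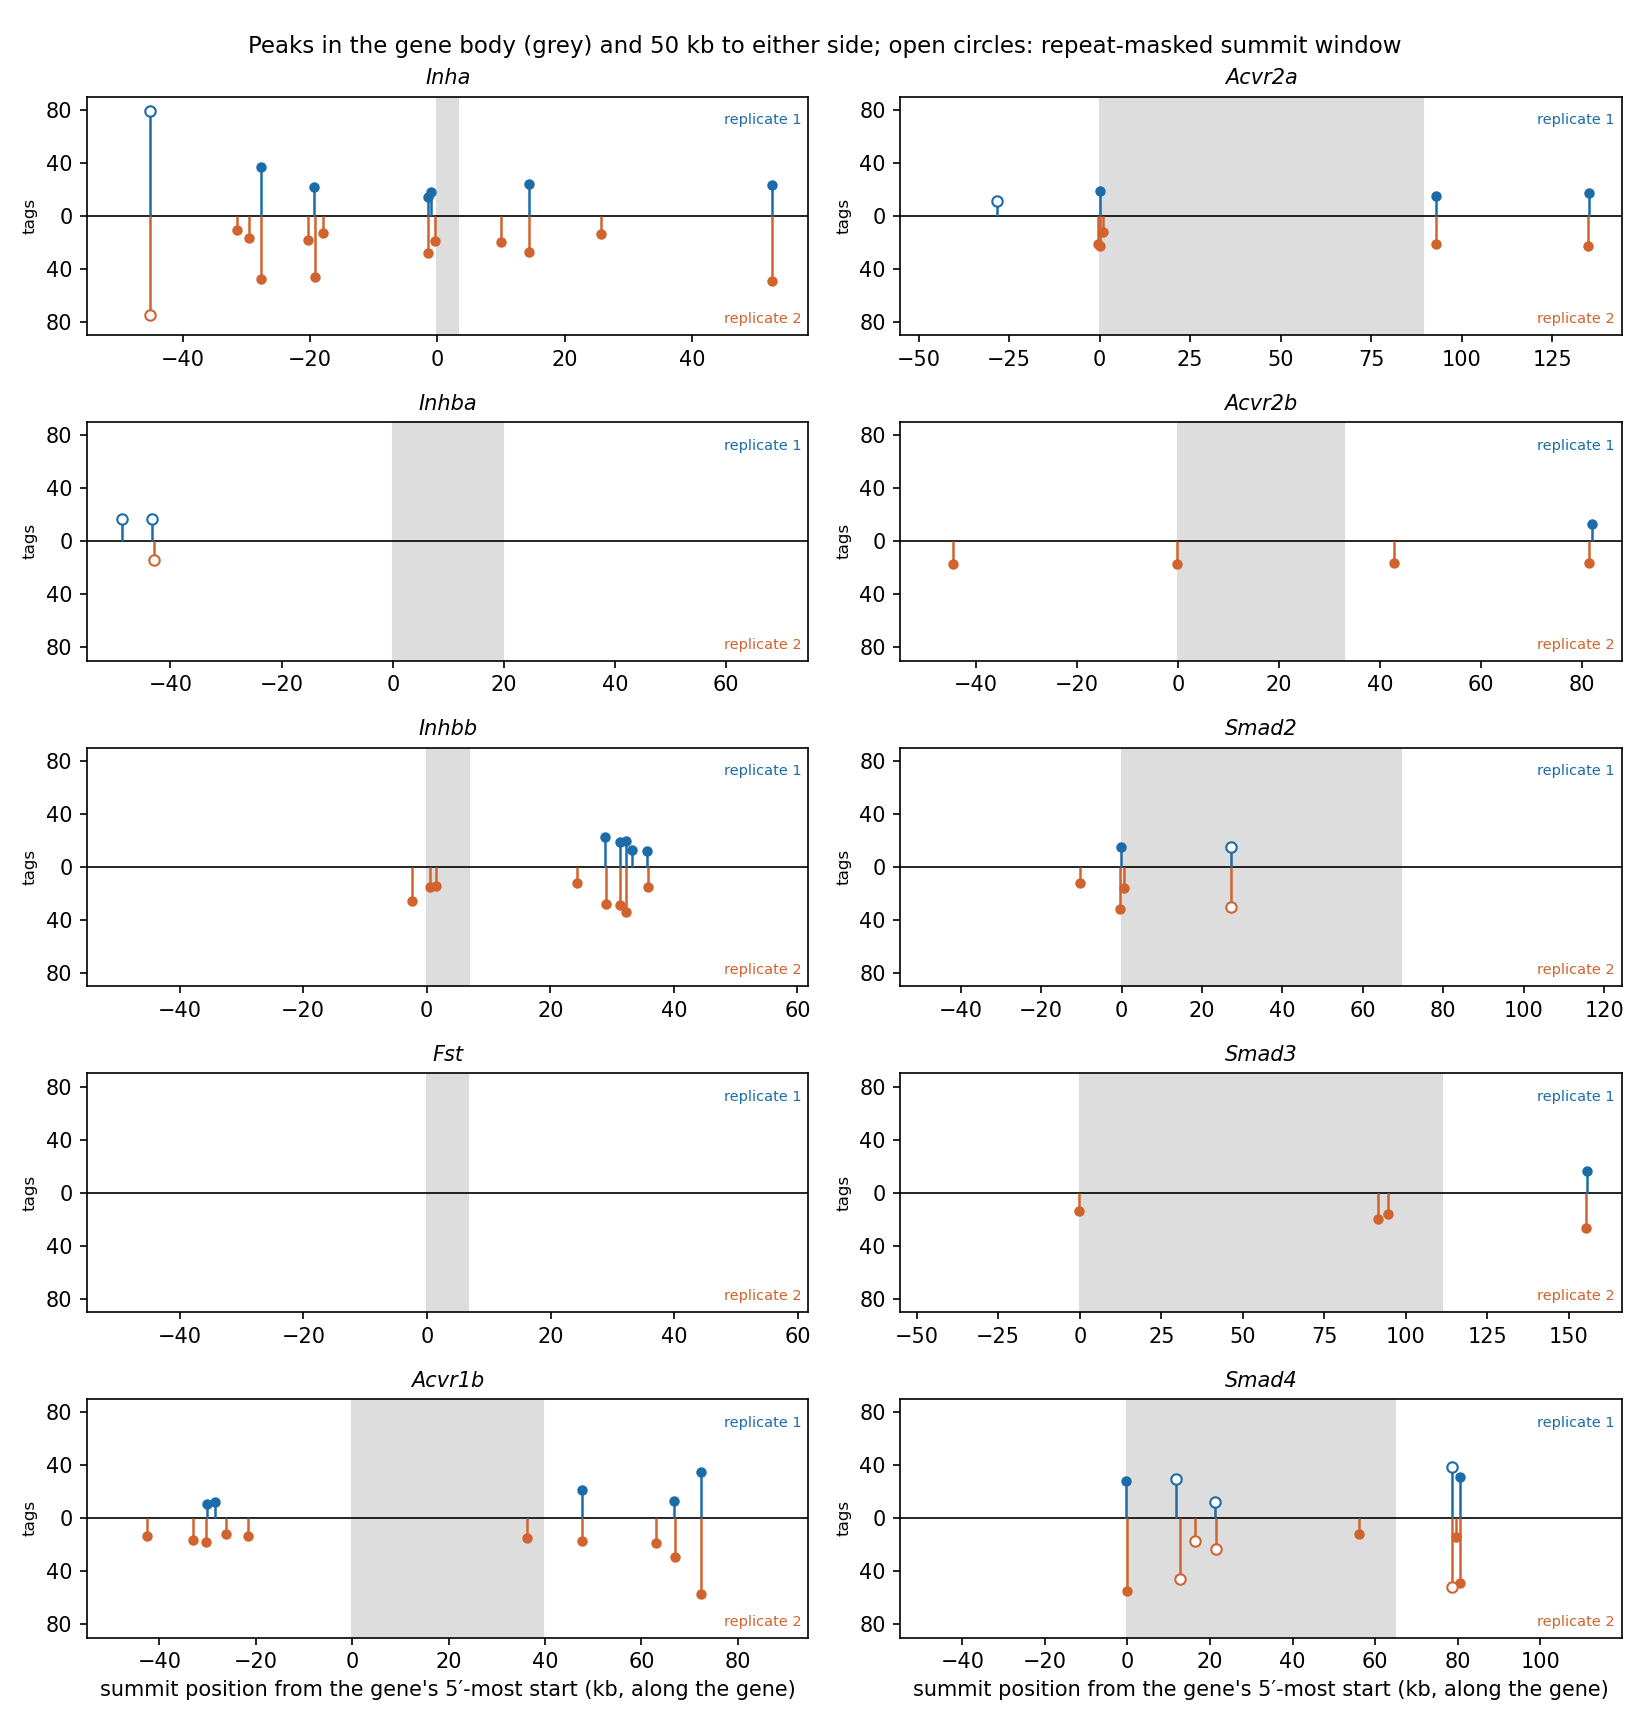
Peaks of each gene's window by distance from the 5′-most start (x axis, kb along the gene), with tags at the summit above the line for replicate 1 and below it for replicate 2 (y axis); grey marks the gene body and open circles mark summits with at least 50% repeat-masked bases within 100 bp. The tallest pair is the masked repeat at −45.1 kb of Inha (79 and 75 tags), the group at 28.9 to 35.8 kb of Inhbb recurs in both replicates, and the panel of Fst is empty.

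Acvr1b encodes ALK4, the type I receptor of activin. No promoter peak was listed in either replicate, although its promoter has 79.7% GC and a CpG observed over expected ratio of 1.09, at percentile 99.0 and 97.7 of 32851 RefSeq promoters. The only gene-body peak was intronic, in replicate 2 alone, at 36.3 kb with 15 tags. The window nevertheless held 5 peaks in replicate 1 and 10 in replicate 2. The highest lay at 72.4 kb, with 35 tags in replicate 1 (24.4 to 48.7; −log10 q 21.7) and 57 in replicate 2 (43.2 to 73.8; 44.3), and a second at 66.9 kb held 13 and 29 tags. Both are intergenic and nearer to Nr4a1, an immediate early gene for an orphan nuclear receptor, with the summits of replicate 1 at −7.85 and −13.4 kb from its start. The AU021063 promoter in the same window held 21 and 17 tags.

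The type II receptors Acvr2a and Acvr2b bind activin first. The Acvr2a promoter was open in both replicates, with 19 tags at 83 bp in replicate 1 (11.4 to 29.7; −log10 q 6.97) and 23 tags at 97 bp in replicate 2 (14.6 to 34.5; 9.22). The summits were 14 bp apart, the closest of the 4 promoters seen in both lists, and the mean fold was 5.11 ± 0.25 (SD, n = 2). Replicate 2 had a second promoter peak at −0.343 kb with 21 tags, which holds the GGCGCC letters printed above, and a peak of 12 tags at 1.05 kb, just outside the promoter. At the far end of the window, the Orc4 and Mbd5 promoter held 17 and 23 tags (−log10 q 5.50 and 9.22), and an Orc4 intron peak of 15 and 21 tags sits on sequence with 10 copies. At Acvr2b, a promoter peak of 17 tags (9.90 to 27.2; −log10 q 4.84) at −225 bp was listed in replicate 2 only.

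Smad2 and Smad3 are the Smads that the activin receptor phosphorylates. The Smad2 promoter held 15 tags at −268 bp in replicate 1 (8.40 to 24.7; −log10 q 4.13) and 32 tags at −286 bp in replicate 2 (21.9 to 45.2; 17.1). The mean −log10 q of 10.6 ± 9.16 (SD, n = 2) shows how far these lists differ there. A second promoter peak, of 16 tags, was listed in replicate 2. An intronic peak at 27.2 kb held 15 and 30 tags on single-copy but mostly masked sequence (73.6% and 68.7% masked). The Smad3 promoter was listed in replicate 2 only, with 20 tags (12.2 to 30.9; −log10 q 6.93) at 20 bp from an internal start, 91.5 kb into the gene, and 14 tags at −0.213 kb from the 5′-most start. Replicate 2 also had an intronic Smad3 peak of 16 tags at 94.4 kb. The sole Smad3 window peak of replicate 1 was the Aagab and Iqch promoter, with 16 tags and 27 in replicate 2.

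Smad4 encodes the common Smad that joins the phosphorylated Smads, and its promoter was the highest of the 10 in both replicates. It held 28 tags at −240 bp in replicate 1 (18.6 to 40.5; fold 7.16, −log10 q 14.7) and 55 tags at −203 bp in replicate 2 (41.4 to 71.6; fold 12.3, −log10 q 41.9). These values stand at percentile 81.4 of 7072 and 90.3 of 9725 protein-coding genes with a promoter peak. The mean fold was 9.75 ± 3.67 (SD, n = 2). In its introns, a peak of 30 and 46 tags near 12 kb was 3885 and 3866 bp wide, and one of 12 and 23 tags lay near 21 kb, both on masked sequence. The 50 bp at their summits occur at 42 and 23 places near 12 kb, or 1 and 2 places with 200 bp, and at 2414 and 2764 places near 21 kb, or 1713 and 1 with 200 bp. Past its 3′ end, an unmasked intergenic peak at 80.5 kb held 31 and 49 tags, and the Gm22065 promoter at 78.7 kb, on masked sequence with 15 copies, held 39 and 52.

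Ordered by promoter tags, replicate 1 gave Smad4 (28), Acvr2a (19), Inha (18) and Smad2 (15), and the Poisson intervals of all 4 overlapped. Replicate 2 gave Smad4 (55), Smad2 (32), Acvr2a (23), Smad3 (20), Inha (19), Acvr2b (17) and Inhbb (15). There the interval of Smad4 lay above those of Acvr2a, Smad3, Inha, Acvr2b and Inhbb and overlapped that of Smad2, and no other neighbours in the order were separated. All 11 highest promoter summits were single-copy and fell under the 50% mark for masked bases. The median promoter −log10 q over the genes with a peak was 6.59 in replicate 1 and 6.93 in replicate 2, beside 6.97 and 12.5 over all protein-coding genes with one. The plot of cumulative promoter tags places each gene in its list.

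**Figure D3:**
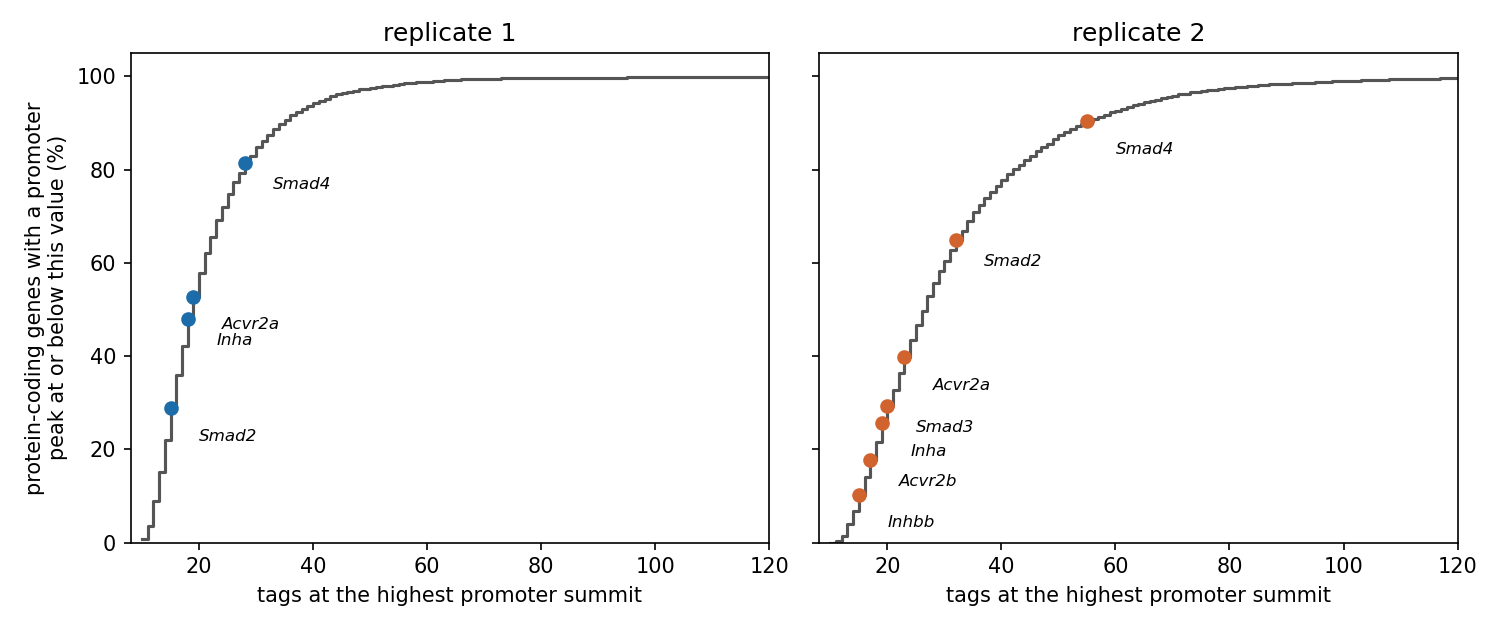
Cumulative share of protein-coding genes with a promoter peak (y axis, percent) by tags at their highest promoter summit (x axis), for replicate 1 with 7072 genes and replicate 2 with 9725; dots mark the genes of the set. Smad4 lies at percentile 81.4 and 90.3, and in replicate 2 the other genes but Smad2 lie below the middle of the curve.

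The replicates were compared gene by gene with an exact conditional binomial test, two-sided, on the promoter tags of the 6740 genes with a promoter peak in both lists, with the ratio of the backgrounds (1.16) as the expected ratio and Benjamini-Hochberg adjustment over all of them. The test compares 2 libraries and not conditions, and it covers counting error only, so any spread between libraries counts as a difference. It called 377 genes (5.59%), 373 of them higher in replicate 2, and 0 of the 4 genes of the set. With the median ratio over all tested genes (1.65) as the expected one it called 7 genes, the log2 values fell to 0.25 for Smad4 and −0.45 for Acvr2a, which changed sign, and again 0 of the 4 were called. Smad4 had 1.96 times as many tags in replicate 2 (log2 of 0.76 relative to the backgrounds, unadjusted p = 0.0271, adjusted p = 0.151 in this exact test) and was the 1 gene of the set with an unadjusted p under 0.05, as 1618 of all tested genes had. Smad2 had 2.13 times as many (0.88, adjusted p = 0.219 in the exact test), and for Inha and Acvr2a the exact test gave adjusted p = 0.958 and 1. The Inha values come from summits at −900 and −332 bp whose peaks do not overlap, so they compare the highest promoter peak of each list and not 1 site. Over all tested genes, 94.1% had more tags in replicate 2, and the 4 genes of the set were higher there too.

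**Figure D4:**
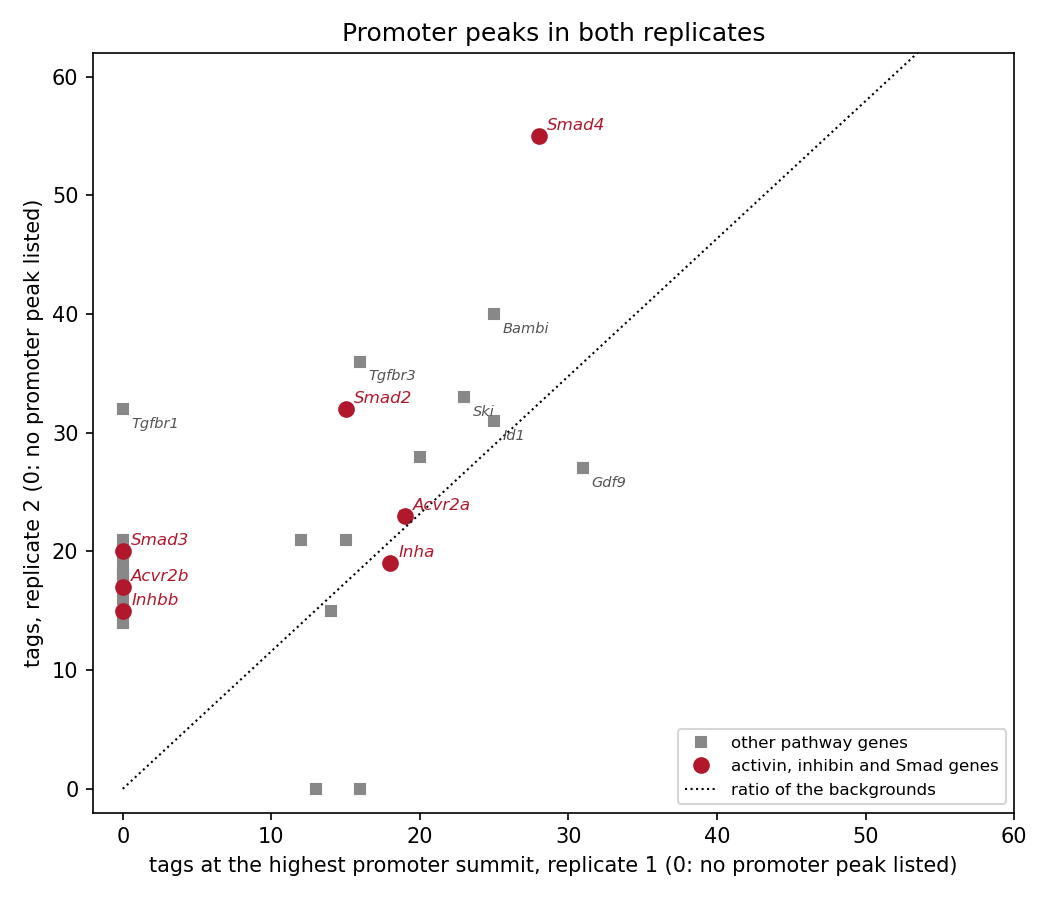
Tags at the highest promoter summit in replicate 1 (x axis) against replicate 2 (y axis) for the genes of the set (red) and the other pathway genes (grey squares), with 0 for no listed peak and the ratio of the backgrounds as a dotted line. Smad4 (28 and 55) and Smad2 (15 and 32) lie above the line, Inha (18 and 19, from peaks that do not overlap) below it, and Smad3, Acvr2b and Inhbb on the left edge.

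By feature, the 32 peaks of replicate 1 comprised 4 in promoters of the 10 genes, 8 in promoters of other genes, 3 in exons of other genes, 3 in introns of the 10 genes, 4 in introns of other genes and 10 distal intergenic ones. The 57 peaks of replicate 2 comprised 10, 15, 5, 8, 4 and 14 in the same order and 1 in an exon of Inhbb. The difference between the lists thus lay in every class but introns of other genes. Of the intronic peaks of the 10 genes, 3 of 3 in replicate 1 and 4 of 8 in replicate 2 were masked, beside 63.0% and 57.8% of all peaks of the lists. The median window held 3 peaks in replicate 1 and 4.5 in replicate 2, beside 2 and 3 over all protein-coding genes. Windows include the gene bodies, which run from 3.29 kb at Inha to 111 kb at Smad3, and this comparison was not matched for gene length.

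**Figure D5:**
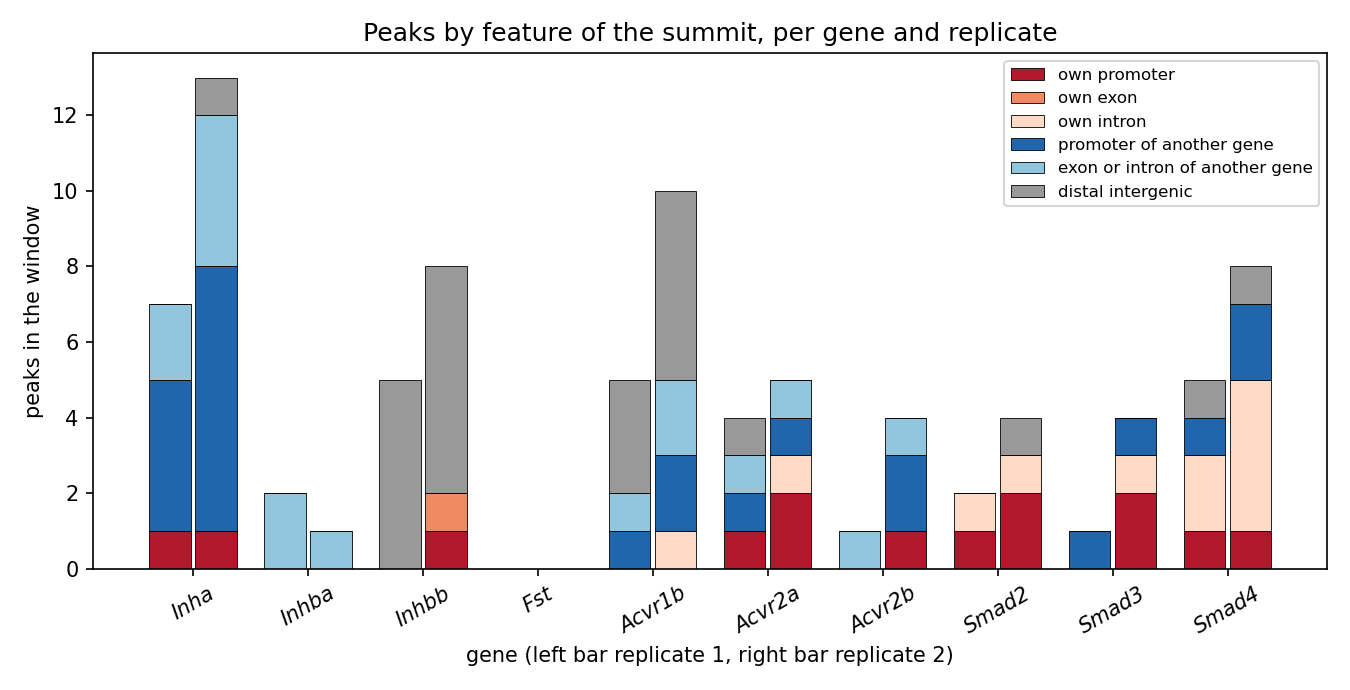
Peaks in each gene's window (y axis, number) by the feature at the summit, with replicate 1 as the left and replicate 2 as the right bar of each gene (x axis). Inha (7 and 13 peaks) is mostly promoters of other genes, Inhbb (5 and 8) mostly distal intergenic peaks, and Fst has none.

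Of these window peaks, 29 of 32 in replicate 1 (90.6%, exact Clopper-Pearson 95% interval 75.0 to 98.0) and 27 of 57 in replicate 2 (47.4%, 34.0 to 61.0) overlapped a peak of the other replicate, beside 59.1% and 51.6% of the whole lists. Multi-copy summits were 7 of 32 (21.9%) and 6 of 57 (10.5%), beside 66.9% and 61.2% of the lists. Of the 29 overlapping pairs, 26 (89.7%) had more tags in replicate 2, with a median ratio of 1.56, beside 73.3% of 36210 pairs of the whole lists and a median ratio of 1.23. Over single-copy pairs it was 22 of 24 (91.7%, median ratio 1.60) in the windows and 89.7% of 11505 (1.53) in the whole lists. These shares are descriptions, since peaks of 1 library are not replicates.

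Searched letters were counted within 100 bp of each summit on both strands. The Smad palindrome GTCTAGAC and the repeated half-site AGACAGAC were in 0 of the 32 and 57 windows, and in 0.119% and 1.90% of all windows of replicate 1. The GC-rich Smad element GGCGCC was in 6 (18.8%) and 8 (14.0%), beside 3.22% and 4.17% of all windows, and GGGCGG (SP1) was in 9 (28.1%) and 16 (28.1%), beside 9.85% and 12.1%. CCAAT (NFY) was in 5 (15.6%) and 8 (14.0%), beside 34.0% and 33.0%. Among promoter peaks, GGCGCC lay near the summits of Smad4 in both replicates and of Inhbb in replicate 2. At Acvr2a it lay near the peak at −0.343 kb of replicate 2 alone, and not near the shared summit at 83 and 97 bp. At Smad2 it lay near the summit of replicate 1 and, in replicate 2, near the second promoter peak of 16 tags and not near the higher summit at −286 bp. The windows differ from the lists in their share of promoters and repeats, and the part of these in the counts was not tested.

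Forkhead letters (TGTTTAC) were in 1 and 3 windows, SF1 (TCAAGGTCA) in 0 and 3, EGR1 (GCGTGGGCG or GCGGGGGCG) in 1 and 3, the E-box CACGTG in 2 and 4, TGACGTCA (CRE) in 0 and 1 and its part TGACG in 6 and 10. The shares of all windows of replicates 1 and 2 were 1.54% and 1.68% for the forkhead letters, 0.462% and 0.774% for SF1, 0.424% and 0.583% for EGR1 and 2.44% and 2.71% for the E-box. They were 0.533% and 0.653% for CRE and 8.50% and 9.41% for TGACG. The Acvr1b peak at 72.4 kb held the forkhead letters in both replicates. In RefSeq promoters (250 bases before to 50 after a start, GRCm38), which matched 7 of the 10 genes, GGGCGG was present at Inhbb, Acvr1b, Acvr2a, Acvr2b and Smad3, beside 35.7% of all promoters. GGCGCC was present at 1 of the 7, Acvr1b, outside the bases printed above, beside 11.9% of all promoters. Acvr1b had no promoter peak. GC content ran from 47.7% at Inhba to 80.3% at Acvr2a, beside a median of 52.7%. The GC-rich Acvr1b promoter (79.7%) had no peak, while Acvr2a (80.3%) had one in both replicates.

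Of 51 other genes of the transforming growth factor β superfamily pathways, 12 had a promoter peak in replicate 1 and 20 in replicate 2, 10 in both and 29 in neither. Over all protein-coding genes the shares were 32.3%, 44.4% and 30.8% for replicate 1, replicate 2 and both, and the counts of these 51 genes fell below each. Over all protein-coding genes 11854 of 21911 had a peak in neither. By role, 2 of 14 ligand genes, 2 of 12 receptor and co-receptor genes, 2 of 6 other Smad and anchor genes, 3 of 12 genes for binding proteins and inhibitors and 1 of 7 genes for DNA-binding partners and targets had one in both. The 6 highest by mean −log10 q (± SD, n = 2) were Bambi, a pseudoreceptor that inhibits signalling (18.5 ± 9.27), Gdf9, an oocyte growth factor (15.1 ± 3.60), Ski, a corepressor of Smads (14.1 ± 5.53), Id1, a target of bone morphogenetic proteins (14.0 ± 2.96), Tgfbr3, the inhibin co-receptor betaglycan (12.9 ± 11.4), and Bmpr1a (10.6 ± 4.02). By this mean Smad4 stood above all of them with 28.3 ± 19.2, but in replicate 1 alone Gdf9 (31 tags, −log10 q 17.6) was above Smad4 (28 tags, 14.7).

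Among the genes listed as receptors or co-receptors, Acvr1, Acvrl1, Bmpr1b, Tgfbr2, Igsf1 and Tdgf1 had no promoter peak in either replicate. Among the Smads, Smad1 and Smad5, which bone morphogenetic protein receptors phosphorylate, had none. The receptor gene Tgfbr1 had 32 tags in replicate 2 and no peak in replicate 1, the widest such gap among the 61 genes counted, and was named after its values were seen. The forkhead partner Foxl2 had a promoter peak of 14 tags in replicate 2 alone, and it too falls outside the rule for named genes.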

How the data were processed

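ATAC-seq measured accessibility in 2 replicates of 1 condition. Reads were aligned by the authors to GRCm38 (mm10) with Bowtie2, duplicates were dropped, and MACS2 was run on each replicate alone. Versions are not given in the sources used here, no input control is named, and the genome-size option in the methods is that of the fly. The background, folds, q values and lowest listed peak were taken as that run gave them. How far this option shaped them, and with them which loci have no listed peak, was not tested. The authors deposited for each peak its start, end and summit, a score, the fold enrichment (a ratio to background), and p-value and q-value columns as −log10.

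Summit tags and the background of each list were obtained from fold and p together, with extension to 200 bp, so intervals on tags are exact Poisson ones that cover counting error only. Computation used numba 0.67.0, scipy 1.17.1, pandas 2.3.3, numpy 2.4.6, matplotlib 3.10.9 and Python 3.11.15, with GENCODE vM21, RefSeq promoters and the GRCm38 sequence. A summit was multi-copy when its central 50 bp lay at more than 1 genomic place, and masked when at least 50% of the bases within 100 bp were soft-masked. An overlap of 1 bp or more made peaks shared. A summit in a promoter of the gene itself was counted there first, then in a promoter of another gene, then in exons and introns. The study describes its samples and libraries as independent but does not say whether they were separate cultures, so their spread may be technical. The replicate comparison was an exact binomial test with Benjamini-Hochberg adjustment (threshold 0.05) and was tested on simulated data. The simulated tags held built-in changes and counting error only, and their expected ratio was known. They therefore cannot show how many of the calls in these lists come from other spread between libraries.

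The genes and lists were chosen with earlier results of these data known. Named were the 10 genes, the 6 other pathway genes with the highest mean −log10 q among those with a promoter peak in both replicates, receptors, co-receptors and Smads without a promoter peak, and neighbours with a promoter peak in both replicates. Slc4a3, Asic4, B230303A05Rik and Nr4a1 were named as well, to place window peaks, and fall outside this list. Alternatives concerned promoter width, transcripts, the threshold on q, copy number, window, overlap, expected ratio, motif window and leaving out a replicate. Sequence of Smad2 and Smad4 is not reported here.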

Additional observations from a re-analysis of the deposited data

How the results depend on the processing

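With a −log10 q of at least 10, the mean over replicates of genes of the set with a promoter peak fell from 5.5 to 1.5 (Smad4 in replicate 1, Smad2 and Smad4 in replicate 2), that of other pathway genes from 16 to 5.5, that of window peaks from 44.5 to 14.5 and that of multi-copy summits from 6.5 to 2, or to 3 with 200 bp. Window peaks came to 17.5 with 10 kb, 75.5 with 100 kb, 8.5 in gene bodies alone and 17 where the nearest start was the gene's own. Windows with a Smad motif fell from 7 to 3.5 within 50 bp of the summit. In that narrower window of replicates 1 and 2, SP1 was in 3 and 11, EGR1 in 0 and 0 and SF1 in 0 and 1. The E-box was in 1 and 1, CRE in 0 and 0, TGACG in 3 and 4 and NFY in 2 and 4. Forkhead letters were in 1 and 2, and AP1 in 1 and 0. With the median ratio as the expected one, calls between replicates fell from 377 to 7, and no gene of the set was called either way. The share of window peaks that overlap the other replicate went from 90.6% and 47.4% to 56.2% and 31.6% with an overlap of 50%, and to 50% and 28.1% with summits within 100 bp. At a promoter width of 500 bp Inha was lost in replicate 1, so 3 genes were left there, and at 2 kb the mean Inha −log10 q was 9.82. Leaving out a replicate gave 4 to 7 genes of the set, 12 to 20 other pathway genes, 32 to 57 peaks, 47.4% to 90.6% shared, 6 to 7 multi-copy summits and 6 to 8 motif windows. The masking filter and the RefSeq starts, chosen after seeing the data, left the promoter counts of the set at 4 and 7. The causes were not tested. No paired analysis was possible because there is 1 condition and no groups were compared. A peak near the threshold rests on 10 or 11 tags.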
